A study of Homo sapiens with 6 samples.

Results

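The ERBB receptors and their ligands are a family of 4 receptor tyrosine kinases, EGFR, ERBB2, ERBB3 and ERBB4, and of the 6 growth factors AREG, EREG, TGFA, HBEGF, BTC and EPGN. Members were taken by gene symbol from the symbol column of the deposited RNA table, where they made up 10 of 19223 symbols and 32 of 45006 transcripts. A ligand binds the outer part of a receptor, which then pairs with a second receptor molecule, and the kinases of the pair mark each other with phosphate. ERBB2 has no known ligand of its own and ERBB3 has little kinase activity, so that these receptors act through their partners. In colorectal epithelium and its tumours the family drives growth, and EGFR is a target of treatment there.

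RNA came from LoVo, an established line grown from a human colorectal adenocarcinoma, either with vehicle and no drug (Control, 0 µM) or with 2.5 µM DCC-2036, a tyrosine kinase inhibitor also called rebastinib, with 3 libraries in each group. According to the labels cells were treated for 48 h, and a figure legend of the study gives a shorter time. No label says that the replicates were separate cultures, so p-values measure the spread between these libraries, which may be technical. In bulk RNA, fewer cells with a transcript and less of it per cell cannot be told apart.

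The table gives for each transcript and library an adjusted signal that is not a whole number, and the reads behind each value, and so the depth, are unknown. Totals of these values ran from 38997229 to 40587145 in Control and from 43279603 to 48023306 in DCC-2036. Each gene was represented by its transcript of highest mean. Genes that reached 10 in 3 or more libraries were compared on log2(value + 1) with limma (two-sided, adjusted over all 12725 genes that passed), and called at an adjusted p under 0.01. On this scale the change of genes with low values is understated. An exact permutation test of 3 libraries against 3 cannot go below p = 0.1.

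Marker genes were checked against the labelled cell type. Of 12 epithelial and intestinal markers, 7 were at 10 or more in every library, led by KRT8, whose values lay between 55603 and 64134 in Control and between 92924 and 125395 in DCC-2036. The intestinal markers VIL1, CDH17, LGALS4 and CEACAM5 stayed at or below 7.23 in every library, and CDX1 was listed at 0 in all 6, while CDX2 was between 213 and 365. The epithelial sum was 104485, 108198 and 115000.4 in Control, against 148349, 163491 and 188449.7 in DCC-2036. KRT8 rose (log2 fold change 0.84, adjusted p = 0.00287, limma), as did the adhesion molecule CDH1 (1.10, adjusted p = 0.000354, limma), and KRT20 fell (-1.15, adjusted p = 0.00427, limma).

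Markers of other cells were low, with exceptions. Of 8 leukocyte markers 1 reached 10 in every library, the lysosomal protein gene CD68, and PTPRC, CD3D and MS4A1 were listed at 0 throughout. The leukocyte sum was 231, 273 and 265 in Control, against 226, 254 and 309 in DCC-2036. Of 7 fibroblast markers 1 did so, COL1A1, with a fibroblast sum of 443, 414 and 369.6 in Control, against 522, 454 and 554 in DCC-2036. That sum was higher in each DCC-2036 library than in each Control library, and its part in the results was not tested. None (0) of 6 endothelial markers reached 10 in every library, and their most abundant gene was VWF, with a sum of 18.9, 15.9 and 18.6 in Control, against 43.4, 16.5 and 25.9 in DCC-2036.

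With DCC-2036, the receptor gene ERBB3 and the ligand gene AREG were lower, and the ligand genes HBEGF and TGFA were higher. Of the 10 members 8 passed the filter on low values, each of them with at least 10 in all 6 libraries, and ERBB4 and EPGN did not. Among the 8, 2 were called higher, beside 19.2% of all genes tested, and 2 lower, beside 22.7%. In 6 of the 8 the groups did not overlap, beside 71.1% of all genes tested. With 8 members, these counts lie near the shares over all genes, of which 2442 were higher and 2887 lower, and show nothing particular to the family. The median log2 fold change was -0.05 over the 8 members and -0.09 over all genes tested. Leaving out Control replicate 1, 2 or 3 or DCC-2036 replicate 2 left 1054, 1000, 992 and 928 genes higher and 1593, 1514, 1525 and 1708 lower.

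Scaling moved all genes together. With libraries scaled to equal totals the median of all genes shifted by -0.20, to -0.29, and 1669 genes were higher and 3440 lower, so that 32.7% of calls were higher in place of 45.8%. With trends over transcript length and GC content taken out, a setting chosen after seeing the data, the shift was 0.15, and 3174 genes were higher and 2441 lower (56.5% higher). Relative to the median of all genes, ERBB3 stood at -1.46 in the comparison reported here, AREG at -0.70, EREG at 0.71, TGFA at 0.51 and HBEGF at 0.94. With equal totals these were again -1.46, -0.70, 0.71, 0.51 and 0.94. Dividing each library by its own factor moves all genes nearly alike, so these values could hardly change and show no stability. With the trends taken out they were -1.30, -0.82, 0.48, 0.53 and 0.98. Among the members that were not called, EGFR went from -0.48 to -0.44 relative to the median with the trends out, BTC from 0.80 to 0.70, and ERBB2 from -0.44 to -0.16.

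**Figure D1:**
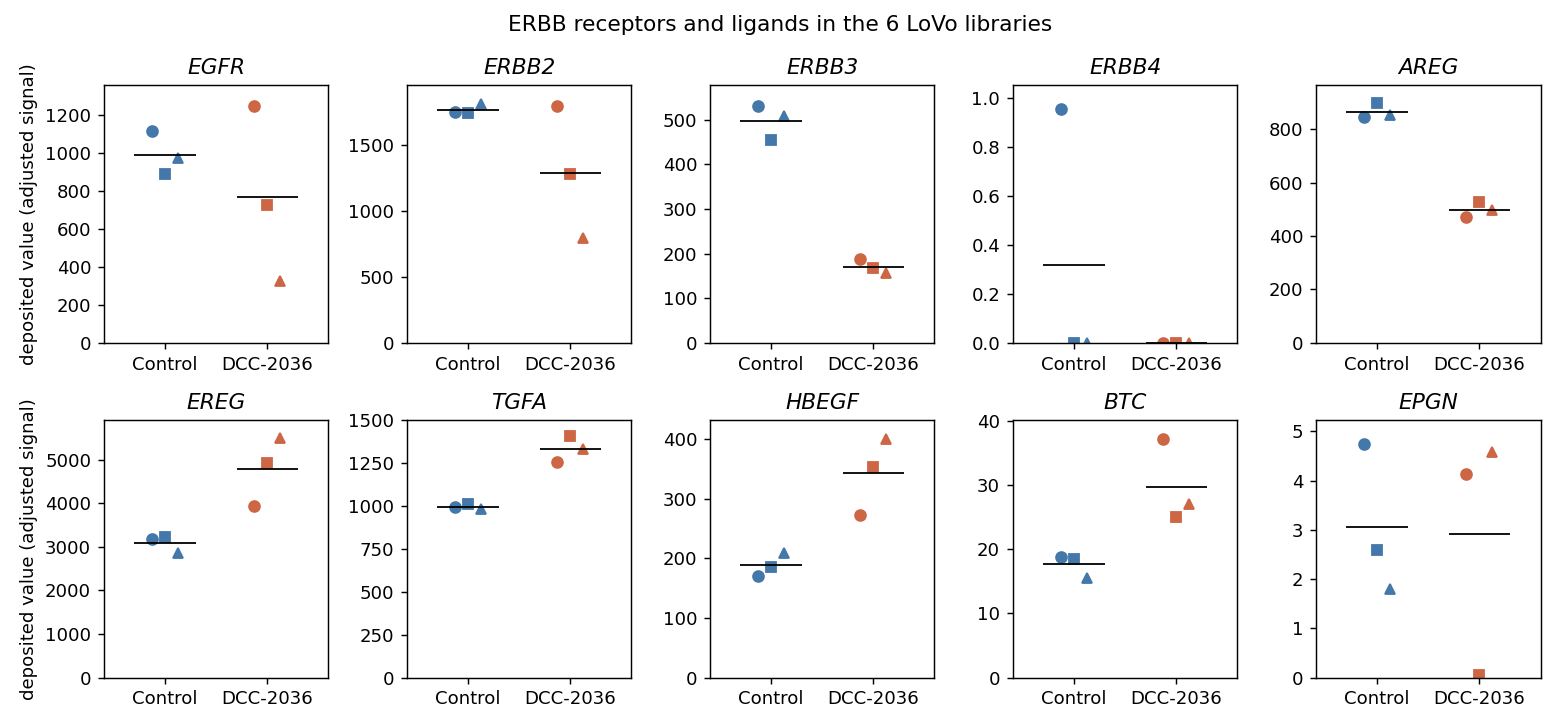
Deposited values (vertical axis, adjusted signal, each panel from 0 with its own scale) of the 10 members in the 3 Control and 3 DCC-2036 libraries. Circles, squares and triangles are replicates 1, 2 and 3 and lines are means of 3. ERBB3 and AREG lie lower and EREG, TGFA, HBEGF and BTC higher in all 3 DCC-2036 libraries, while EGFR and ERBB2 spread widely there.

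**Figure D2:**
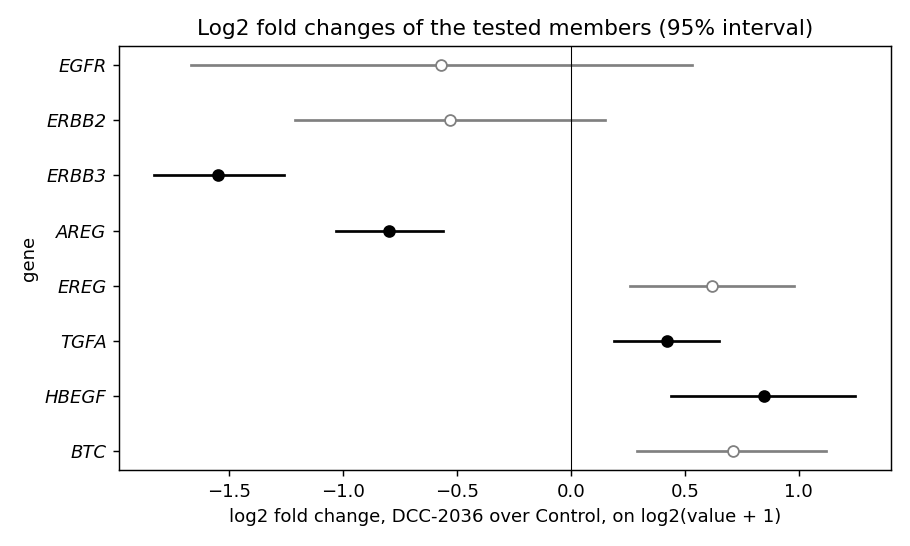
Log2 fold change of DCC-2036 over Control on log2(value + 1) (horizontal axis) for the 8 tested members, with 95% intervals from limma. Filled points passed an adjusted p of 0.01. The interval of ERBB3, from -1.83 to -1.26, lies farthest from 0, and those of EGFR and ERBB2 include 0.

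ERBB3, the receptor for neuregulins that signals mainly as a partner of ERBB2, lies at chr12:56076799-56103505 on the forward strand (GRCh38, GENCODE 29, which gives all gene positions here, as the table gives neither positions nor a build). Its main transcript NM_001982.3 had values of 532, 454 and 509 in Control, against 187, 167 and 156 in DCC-2036. All DCC-2036 libraries were thus far below all Control libraries, and the replicates of each group lay close together. The mean fell from 498 ± 40.4 (SD, n = 3) to 169.8 ± 15.4 (SD, n = 3), which left 34.1% of the Control level. The log2 fold change was -1.55 ± 0.12 (SE, limma, adjusted p = 0.000287), lower in 3 of 3 DCC-2036 libraries. ERBB3 ranked 312 by p-value among the 12725 genes, ahead of the other members, and the exact permutation test gave p = 0.1, the smallest possible.

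ERBB3 has a second, short transcript in the table, NM_001005915.1, which encodes a secreted form without the kinase region. Its values were 87.6, 65.6 and 80.1 in Control, against 53.1, 110.0 and 97.0 in DCC-2036. Here the groups overlapped, with DCC-2036 replicate 1 lowest and DCC-2036 replicate 2 highest of all. The log2 fold change of the short transcript was 0.10 (95% interval -0.58 to 0.78, adjusted p = 0.769, limma over 32323 transcripts), and its sign turned without Control replicate 2 (-0.02), without DCC-2036 replicate 2 (-0.10) or without DCC-2036 replicate 3 (-0.01).

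Relative to the long transcript, the short one stood higher with DCC-2036. Its value divided by that of the long transcript was 0.164, 0.145 and 0.157 in Control, against 0.285, 0.660 and 0.621 in DCC-2036. The ratio was higher in all 3 DCC-2036 libraries, and replicate 1 stood nearest to Control. The mean ratio was 0.155 ± 0.0101 (SD, n = 3) against 0.522 ± 0.206 (SD, n = 3). Ratios between transcripts and between members were chosen after the values were seen and are given without a test. Set against the other transcripts of its gene, a comparison chosen after the data had been seen, the short transcript differed by 1.65 on the log2 scale with an adjusted p of 0.0424 (limma's diffSplice), which did not pass 0.01. That limit was passed by 0.790% of the 26325 transcripts compared in this way. The transcripts share exons, and how reads were divided among them is not given in the sources used here.

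**Figure D3:**
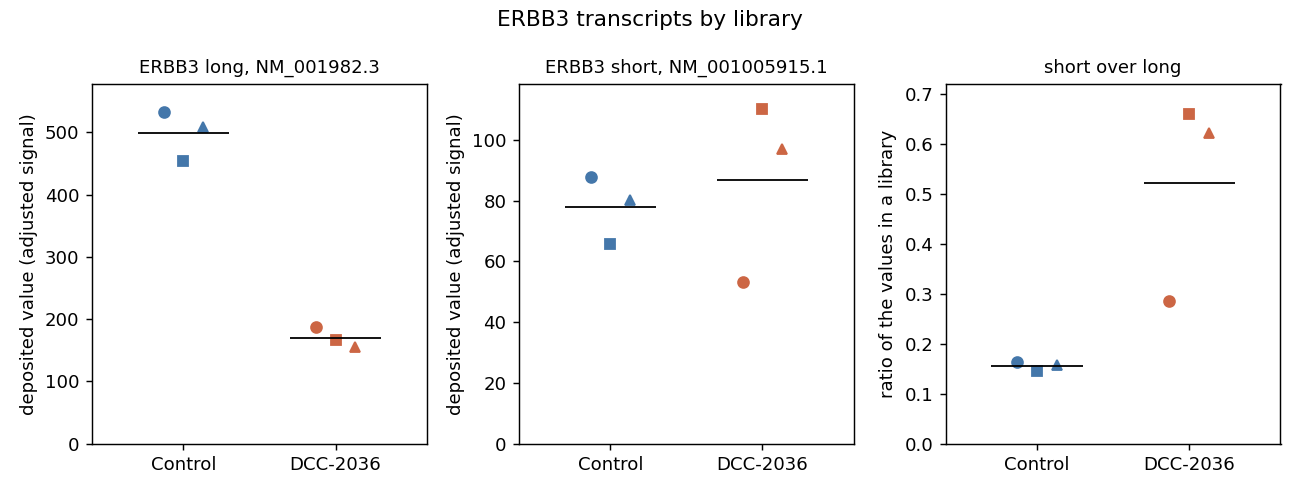
Values of the long and short ERBB3 transcripts (adjusted signal, axes from 0) and the ratio of short to long within each library, for 3 Control and 3 DCC-2036 libraries. Circles, squares and triangles are replicates 1, 2 and 3 and lines are means. The long transcript is lower in DCC-2036 without overlap, the short one overlaps, and the ratio moves from a mean of 0.155 to 0.522.

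ERBB2, the partner receptor preferred by the other family members, lies at chr17:39687914-39730426 on the forward strand. Its values were 1746, 1738 and 1809 in Control, against 1797, 1277 and 794 in DCC-2036. The Control libraries were nearly equal, whereas DCC-2036 replicate 1 lay among them and DCC-2036 replicates 2 and 3 lay below. The log2 fold change was -0.53 (95% interval -1.21 to 0.15, adjusted p = 0.145, limma). It was -0.22 without DCC-2036 replicate 3 and -0.81 without DCC-2036 replicate 1 (adjusted p = 0.260 and 0.0158, limma), and was called in neither. With length and GC trends taken out it was -0.10 (adjusted p = 0.682, limma, the highest over its alternatives, whose lowest was 0.0158). ERBB2 overlaps PGAP3 and MIEN1 on the opposite strand, with mean values of 159 and 429.6, and as the library kit does not mark strand, reads in those overlaps cannot be assigned to a gene by strand. EGFR overlaps EGFR-AS1 on the opposite strand, and ERBB3 overlaps AC034102.2 on the same strand, where strand would not separate reads with any kit.

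EGFR, the receptor that each of the 6 ligands binds, lies at chr7:55019021-55211628 on the forward strand. Its values were 1115, 885 and 969 in Control, against 1245, 723 and 326 in DCC-2036. The DCC-2036 libraries held both the highest and the lowest value of the 6. The log2 fold change was -0.57 (95% interval -1.67 to 0.53, adjusted p = 0.309, limma), and it rested on DCC-2036 replicate 3, without which it was -0.05 (adjusted p = 0.855, limma). Leaving out DCC-2036 replicate 1 gave -1.02 (adjusted p = 0.0372, limma), still outside the limit. On the log2 scale the SD of EGFR was 0.17 in Control and 0.97 in DCC-2036, and that of ERBB2 was 0.03 and 0.59.

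DCC-2036 replicate 3 stood apart from replicate 1 in both genes, by -1.93 in EGFR and -1.18 in ERBB2 (log2). Over all genes with a known length, the same difference had a median of 0.18 for transcripts under 2 kb, of -0.15 for those of 4 to 6 kb and of -0.20 for those of 6 kb and over. Control libraries differed with length as well: Control replicate 3 minus replicate 1 had a median of 0.10 under 2 kb and of -0.10 at 6 kb and over, with -0.20 for EGFR and 0.05 for ERBB2. Over genes, Spearman's correlation of the difference with length, a description over genes that are not independent replicates, was -0.32 for this Control pair and -0.23 for the DCC-2036 pair. The part of transcript length in the values of these receptors was not tested. In the other tested members it was between -0.44 (BTC) and 0.55 (HBEGF).

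All 9 EGFR transcripts and all 5 ERBB2 transcripts passed the filter, and 0 of these 14 were called in the fit over all transcripts. Among the members' 25 transcripts in that fit, 5 were higher, beside 19.7% of all transcript rows, and 2 were lower, beside 22.4%. Of the 5 higher, 4 were TGFA transcripts with nearly the same values. Some EGFR transcripts end early and encode forms without the kinase region. Among them NM_201283.1, with the lowest deposited values of the gene (not divided by length), had values of 218, 161 and 180.3 in Control, against 263, 183 and 122 in DCC-2036, which overlap. Its ratio to the highest transcript was 0.196, 0.182 and 0.186 in Control, against 0.211, 0.253 and 0.374 in DCC-2036, higher in all 3, with DCC-2036 replicate 3 farthest. The difference between the group means of this ratio, 0.0916, was 0.0442 without DCC-2036 replicate 3. Its difference from the other EGFR transcripts had an adjusted p of 1.000 (limma's diffSplice).

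ERBB4, a neuregulin receptor at chr2:211375717-212538841 on the reverse strand, had a value of 0.955 in Control replicate 1 and was listed at 0 in the other 5 libraries, for each of its 2 transcripts. No difference was detectable at such values.

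Per kilobase, ERBB2 stood above the other receptors and ERBB4 below them in mean, whichever transcript with a known length was used. In Control, EGFR stood above ERBB3 for each such transcript, at 99.8 to 127 per kb against 75.7 and 84.2. In DCC-2036 their order depended on the transcript, at 77.8 to 122 per kb against 28.7 and 84.4. For the transcripts of highest mean the levels per kb in Control were 388 ± 8.65 for ERBB2, 101 ± 11.9 for EGFR and 84.2 ± 6.82 for ERBB3 (SD, n = 3). EGFR and ERBB3 lay close together there. In DCC-2036 they were 284 ± 110.3, 77.8 ± 46.9 and 28.7 ± 2.60 (SD, n = 3). The short ERBB3 transcript was at 75.7 ± 10.9 per kb in Control and 84.4 ± 29.1 in DCC-2036 (SD, n = 3), near the long one in Control and above it in DCC-2036. Lengths are those of the linked GENCODE transcripts (9821 bases for EGFR) and may differ from the version the table used, so that levels per kb carry that uncertainty.

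Within each library, ERBB3 divided by ERBB2 was 0.305, 0.261 and 0.281 in Control, against 0.104, 0.131 and 0.197 in DCC-2036. The ratio of deposited values was lower in all 3 DCC-2036 libraries. EGFR divided by ERBB2 was 0.561 ± 0.0685 in Control and 0.556 ± 0.142 in DCC-2036 (SD, n = 3), and the ranges overlapped.

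The ligands AREG and EREG are neighbours on chromosome 4. AREG fell with DCC-2036, while the values of EREG lay higher and just missed the limit. Both are made as membrane-bound precursors, and AREG binds EGFR alone, whereas EREG also engages ERBB4. In the annotation EPGN, EREG, AREG and BTC are 4 consecutive protein-coding genes at chr4:74308473-74794686, a span of 486 kb, and 56.4 kb separate the end of EREG from the start of AREG. EREG (chr4:74365143-74388751) and AREG (chr4:74445134-74455009) lie on the forward strand. The 250 bases before the start of each are shown because the values of these neighbours lay in opposite directions. They come from RefSeq on GRCh38.p14, forward strand, at chr4:74444886-74445135 for AREG and chr4:74364895-74365144 for EREG, and capitals mark matches to the motifs named after them.

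AREG: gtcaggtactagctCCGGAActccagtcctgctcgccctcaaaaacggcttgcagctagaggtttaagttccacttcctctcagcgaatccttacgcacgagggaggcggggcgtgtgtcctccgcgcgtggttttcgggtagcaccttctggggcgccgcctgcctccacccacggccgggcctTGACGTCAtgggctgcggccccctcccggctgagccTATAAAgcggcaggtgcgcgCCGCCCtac
EREG: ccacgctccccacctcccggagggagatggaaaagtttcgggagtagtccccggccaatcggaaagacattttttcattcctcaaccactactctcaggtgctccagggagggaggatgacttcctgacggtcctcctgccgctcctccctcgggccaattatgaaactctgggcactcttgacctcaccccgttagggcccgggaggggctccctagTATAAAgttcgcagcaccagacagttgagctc

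Motifs were chosen after the values were known and searched on both strands in the 250 bases before each start, for 9 of the 10 members (all but ERBB3, with 11 promoters) and for 35093 promoters in all. They were the cyclic AMP response element TGACGTCA, the AP-1 element TGANTCA, the GC box GGGCGG, the ETS core CCGGAA, the E-box CACGTG and the TATA box TATAAA. Both promoters hold TATAAA, beginning 29 bases before the AREG start (-29) and 32 before that of EREG (-32), and 10.7% of all promoters hold it. AREG alone of the 9 members holds TGACGTCA, beginning at -65, and 1.65% of all promoters do. AREG also holds GGGCGG (42.6% of all) and CCGGAA (14.5% of all), which EREG does not. No match was found for TGANTCA (6.57% of all) or CACGTG (6.34% of all) in either. No match overlaps another in these promoters. A match is a run of letters and says nothing of a bound factor.

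AREG, listed with 1 transcript (NM_001657.3), had values of 846, 898 and 853 in Control, against 471, 529 and 496 in DCC-2036. The groups were far apart and each was tight. AREG fell from 866 ± 28.3 to 499 ± 29.2 (SD, n = 3), to 57.6% of Control, with a log2 fold change of -0.80 ± 0.10 (SE, limma, adjusted p = 0.00105). The direction was the same in 3 of 3 DCC-2036 libraries.

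EREG, also listed with 1 transcript (NM_001432.2), had values of 3181, 3234 and 2856 in Control, against 3936, 4916 and 5503 in DCC-2036. All DCC-2036 libraries lay above all Control libraries, and they spread more. The log2 fold change was 0.62 (95% interval 0.26 to 0.98) with an adjusted p of 0.0117 (limma), just outside the limit. Without DCC-2036 replicate 1, the lowest of its group, EREG passed, at 0.75 (adjusted p = 0.00244, limma). Over all alternatives its adjusted p ran from 0.00244 to 0.0458.

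The ratio of EREG to AREG within a library was 3.76, 3.60 and 3.35 in Control, against 8.36, 9.29 and 11.1 in DCC-2036. Every DCC-2036 library was thus above every Control library in this ratio of deposited values. The mean moved from 3.57 ± 0.208 to 9.58 ± 1.39 (SD, n = 3). As AREG was lower and EREG higher in each DCC-2036 library, the ratio had to separate the groups and is a description. Per kilobase the pair was level in Control, at 698 ± 22.8 for AREG and 669 ± 44.3 for EREG, and apart in DCC-2036, at 402 ± 23.6 and 1036 ± 171 (SD, n = 3).

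**Figure D4:**
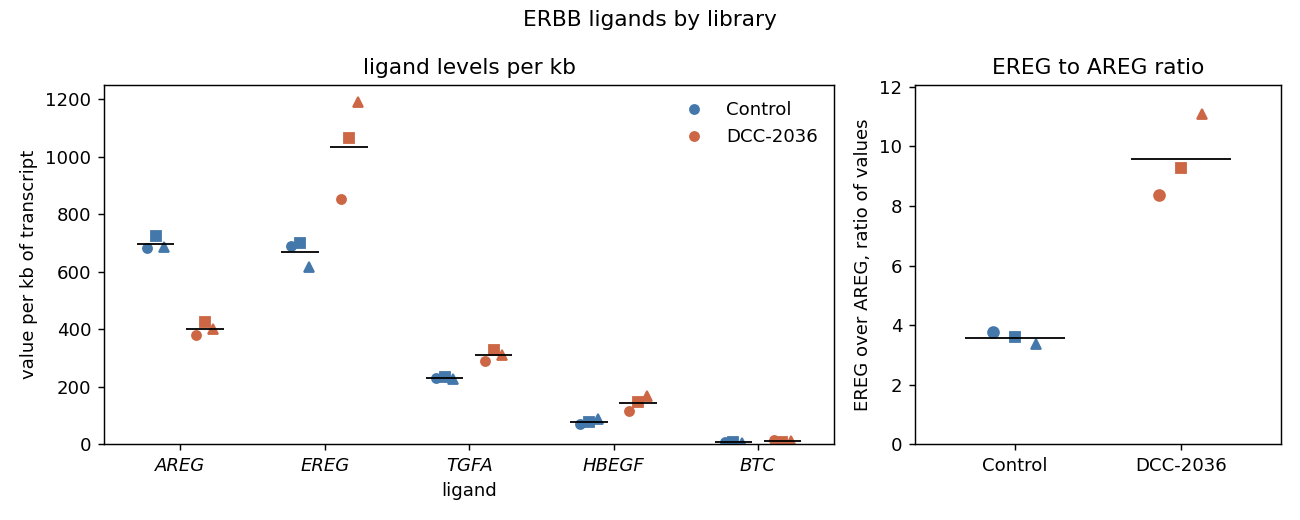
Left, levels per kb of 5 ligands, each by its transcript of highest mean (value per kb, axis from 0), in 3 Control and 3 DCC-2036 libraries. Right, the ratio of EREG to AREG values within each library. Circles, squares and triangles are replicates 1, 2 and 3 and lines are means. AREG and EREG are level in Control (698 and 669 per kb) and apart in DCC-2036 (402 and 1036 per kb), while the 3 shorter TGFA transcripts, not drawn, lie at 774 to 979.8 and 1050.5 to 1323 per kb.

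TGFA, a ligand of EGFR made by many carcinomas, lies at chr2:70447280-70554193 on the reverse strand. The values of NM_003236.3 were 990.1, 1008 and 979 in Control, against 1253, 1408 and 1332 in DCC-2036. The Control libraries were almost equal and all DCC-2036 libraries lay above them. TGFA rose from 992 ± 14.5 to 1331 ± 77.6 (SD, n = 3), with a change on the log2 scale of 0.42 ± 0.10 (SE, limma, adjusted p = 0.00950). This call was close to its limit. It was lost with libraries scaled to equal totals (0.22, adjusted p = 0.0727, limma) and with upper-quartile scaling (0.36, adjusted p = 0.0153, limma). It was also lost without Control replicate 1, 2 or 3 or DCC-2036 replicate 2 or 3 (0.42, 0.43, 0.41, 0.38 and 0.42, adjusted p = 0.0365, 0.0394, 0.0404, 0.0467 and 0.0111, limma). All 4 of its transcripts were called higher with log2 fold changes of 0.42 to 0.44, beside 19.7% of all transcript rows. Their values were nearly the same in each library, so the 4 calls are not separate evidence. These calls were lost without the same Control libraries or DCC-2036 replicate 2.

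HBEGF, a heparin-binding ligand of EGFR and ERBB4, lies at chr5:140332843-140346631 on the reverse strand. It had values of 170.1, 186 and 209 in Control, against 273, 354 and 400.4 in DCC-2036. All 3 DCC-2036 libraries lay above Control, replicate 1 least so. HBEGF rose from 188 ± 19.6 to 342 ± 64.5 (SD, n = 3), to 182% of Control, with a log2 fold change of 0.85 ± 0.17 (SE, limma, adjusted p = 0.00579). Without Control replicate 1, 2 or 3 or DCC-2036 replicate 2 it was 0.77, 0.84, 0.92 and 0.81 and was not called (adjusted p = 0.0250, 0.0234, 0.0152 and 0.0238, limma).

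BTC, a ligand of EGFR and ERBB4 at chr4:74744759-74794686 on the reverse strand, was low, at 18.8, 18.5 and 15.6 in Control, against 37.2, 25.0 and 27.1 in DCC-2036. The groups did not overlap. Its log2 fold change of 0.71 (95% interval 0.29 to 1.12, adjusted p = 0.0121, limma) missed the limit. BTC passed with median-of-ratios scaling (0.78, adjusted p = 0.00660, limma). With any 1 library left out it was not called (0.54 to 0.82, adjusted p from 0.0106 to 0.0461, limma). Among all alternatives the adjusted p of BTC reached 0.0620. The other BTC transcript, NM_001316963.1, had values of 18.8, 16.7 and 15.6 in Control, against 36.2, 19.7 and 27.0 in DCC-2036. That transcript was not called either (0.63, adjusted p = 0.0427, limma over 32323 transcripts). EPGN, at chr4:74308473-74315307, had values of 4.75, 2.60 and 1.79 in Control, against 4.13, 0.0536 and 4.57 in DCC-2036. The EPGN values overlapped, and the exact permutation test gave p = 0.800.

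The order of the ligands per kb depended on the transcript taken for TGFA and EPGN, so no single order is given. By the transcripts of highest mean, TGFA was at 230.3 ± 3.37 per kb in Control and 309 ± 18.0 in DCC-2036, HBEGF at 79.0 ± 8.22 and 143 ± 27.0, and BTC at 6.26 ± 0.632 and 10.6 ± 2.32 (SD, n = 3). The 3 other TGFA transcripts have nearly the same values on shorter lengths, and stood at 774 to 979.8 per kb in Control and 1050.5 to 1323 in DCC-2036. These means lay above those of AREG and EREG in the same group. EPGN was at 2.55 to 9.60 per kb in Control and 2.44 to 8.99 in DCC-2036, by transcript.

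Around the ligand cluster, 17 further genes of chromosome 4 were listed, and 9 of them were tested. Of these, 4 were higher, 1 was lower and 4 were not called, beside 19.2% higher and 22.7% lower over all genes, with a median log2 fold change of 0.28, beside -0.09 for all genes. On the side of BTC, the ubiquitin ligase gene RCHY1 rose from 335 ± 10.6 to 971 ± 239.5 (SD, n = 3, log2 fold change 1.5, adjusted p = 0.000984, limma). The kinase gene CDKL2 (1.67), THAP6 (0.71) and the stress granule protein gene G3BP2 (0.62) also rose, and USO1, a gene of Golgi transport, fell (-1.29). RCHY1 and USO1 kept their calls without each of the 6 libraries. Without Control replicate 1 or DCC-2036 replicate 2, 2 genes were called higher, and without Control replicate 2 or 3, 1 was. Without DCC-2036 replicate 1, 2 were lower, as PARM1 then passed (-0.92, adjusted p = 0.00744, limma). On the side of EPGN, the chemokine genes PF4V1, PF4 and PPBP were listed at 0 in all libraries, and CXCL8 lay between 19.2 and 33.8. Among the uncalled genes PARM1, next to BTC, had the highest mean, at 319 ± 14.7 and 206 ± 69.8 (SD, n = 3, log2 fold change -0.68, 95% interval -1.28 to -0.08). It was -0.41 without DCC-2036 replicate 3 (adjusted p = 0.0445, limma).

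Of the 5 other ERBB ligands, EGF and 4 neuregulins, 2 were tested and neither was called, beside 19.2% higher and 22.7% lower over all genes. With 2 genes at low values, this count shows nothing particular to these ligands. EGF had values of 12.2, 9.55 and 12.9 in Control, against 8.31, 6.58 and 12.7 in DCC-2036 (log2 fold change -0.34, 95% interval -0.90 to 0.23, limma), and its fold change was -0.15 without DCC-2036 replicate 2. NRG4, a ligand of ERBB4, was between 8.45 and 20.5 and overlapped as well (-0.30, 95% interval -1.15 to 0.54, limma). The NRG4 value was -0.04 without Control replicate 2, -0.47 without Control replicate 3, and -0.64, -0.14 and -0.12 without DCC-2036 replicates 1, 2 and 3. NRG1, a ligand of ERBB3, did not exceed 8.25 in any library, NRG2 did not exceed 11.2, and NRG3 was listed at 0.

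Membrane-bound ligands are cut free by proteases of the ADAM family, and rhomboid-like carriers bring ADAM17 to the cell surface. With these, the list held FRMD8, a partner of the carriers, and TIMP3, an inhibitor of such proteases. Of its 10 genes 8 were tested, 3 of them higher, 1 lower and 4 not called, beside 19.2% higher and 22.7% lower over all genes, with a median log2 fold change of 0.14, beside -0.09 for all genes. ADAM17, the main sheddase of AREG, EREG, TGFA and HBEGF, had values of 882, 829.7 and 817 in Control, against 1587, 1754 and 2045 in DCC-2036. It rose without overlap (log2 fold change 1.08 ± 0.12, SE, limma, adjusted p = 0.000848) and kept its call without each library. ADAM9 (0.94) and ADAM15 (0.73) rose too.

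The ADAM17 carrier RHBDF2, also called iRhom2, had values of 682, 657 and 726 in Control, against 270.3, 181 and 90.6 in DCC-2036. It fell in all 3 libraries, by differing amounts (log2 fold change -2.06 ± 0.37, SE, limma, adjusted p = 0.00397). FRMD8, which stabilises the carrier and was singled out after its values were seen, was at 1184 ± 63.3 and 654 ± 229.8 (SD, n = 3, -0.92, 95% interval -1.57 to -0.27) and was not called (adjusted p = 0.0242, limma). FRMD8 passed without DCC-2036 replicate 1 (-1.15) or 3 (-0.61), which brought the genes called lower to 2. ADAM10, the sheddase of BTC and EGF and the uncalled gene with the highest mean, was at 2050.4 ± 82.9 and 1888 ± 405 (SD, n = 3, -0.14, 95% interval -0.56 to 0.28), with a fold change of -0.28 without DCC-2036 replicate 1 and 0.04 without DCC-2036 replicate 3. Without any 1 Control library or without DCC-2036 replicate 2, 1 gene was called higher and 0 lower. RHBDF2 was then -2.06, -2.09 and -2.02 without Control replicates 1, 2 and 3 and -2.13 without DCC-2036 replicate 2, with adjusted p of 0.0165, 0.0147, 0.0175 and 0.0135 (limma).

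**Figure D5:**
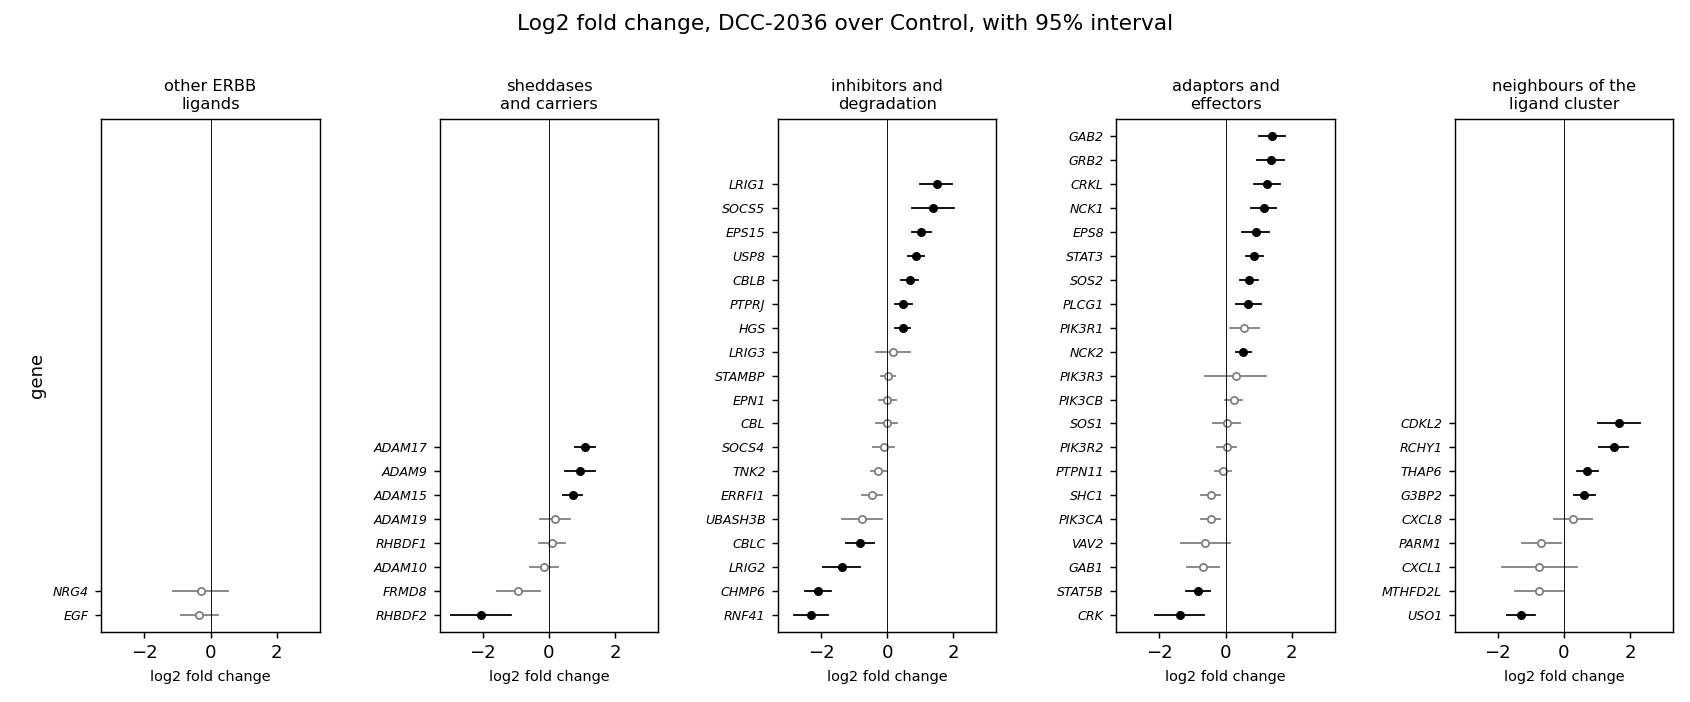
Log2 fold changes of DCC-2036 over Control (horizontal axes, on log2(value + 1)) with 95% intervals from limma, for the tested genes of 5 lists. Filled points passed an adjusted p of 0.01. RNF41, CHMP6 and RHBDF2 lie lowest, and CDKL2, RCHY1 and LRIG1 highest.

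Genes listed under ERBB inhibition and degradation, called inhibitors in the closing section, were split in direction. Not all of them act only to restrain the receptors. All 19 were tested, 7 were higher, 4 lower and 8 not called, beside 19.2% higher and 22.7% lower over all genes, with a median log2 fold change of 0.00, beside -0.09 for all genes. RNF41, a ubiquitin ligase known to act on ERBB3 protein, had values of 692, 829 and 828 in Control, against 201, 166 and 115 in DCC-2036. All DCC-2036 libraries lay far below Control, and RNF41 fell with a log2 fold change of -2.31 ± 0.22 (SE, limma, adjusted p = 0.000472). CHMP6, a subunit of the sorting complex that takes receptors into lysosome-bound vesicles, fell from 387 ± 30.4 to 90.4 ± 17.3 (SD, n = 3, -2.10, adjusted p = 0.000302, limma). The membrane protein gene LRIG2 (-1.37) and the ubiquitin ligase gene CBLC (-0.83) fell as well.

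Higher in the same list was LRIG1, a membrane protein that promotes loss of ERBB receptors, which went from 68.9, 40.9 and 48.7 to 135, 143 and 163. It rose without overlap (log2 fold change 1.49 ± 0.20, SE, limma, adjusted p = 0.00146). SOCS5 rose by 1.38, the endocytic adaptor EPS15 by 1.02, the ubiquitin ligase CBLB by 0.68, the phosphatase PTPRJ by 0.48 and the sorting protein HGS by 0.47. USP8 (0.87, adjusted p = 0.000992, limma) also rose, and it removes ubiquitin from internalised receptors and does not only act against them. ERRFI1, a feedback inhibitor of EGFR kinase and the uncalled gene with the highest mean, was at 7377 ± 366 and 5404 ± 675 (SD, n = 3, -0.46, 95% interval -0.76 to -0.15, adjusted p = 0.0190, limma). It passed with equal totals (-0.65, adjusted p = 0.00317, limma), and also when DCC-2036 replicate 3 was left out (-0.54, adjusted p = 0.00697, limma). LRIG1, USP8, EPS15, RNF41 and CHMP6 kept their calls without each library. Without Control replicate 1, 4 genes of the list were higher and 2 lower, and without Control replicate 2 or 3 or DCC-2036 replicate 2, 3 were higher and 2 lower.

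Of 21 adaptors and proximal effectors, all tested, 9 were higher, 2 lower and 10 not called, beside 19.2% higher and 22.7% lower over all genes. Their median log2 fold change was 0.30, beside -0.09 for all genes. GRB2, the adaptor that couples the receptors to RAS activation, had values of 5129, 5392 and 5681 in Control, against 11217, 14023 and 17054 in DCC-2036. Every DCC-2036 library lay above every Control library, and GRB2 rose with a log2 fold change of 1.36 ± 0.17 (SE, limma, adjusted p = 0.00102). Its docking partner GAB2 rose from 149 ± 16.7 to 399.9 ± 67.6 (SD, n = 3, 1.41, adjusted p = 0.000813, limma).

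The adaptors CRKL (1.26), NCK1 (1.15) and NCK2 (0.54), the receptor substrate EPS8 (0.91), the transcription factor STAT3 (0.87), the RAS exchange factor SOS2 (0.71) and the phospholipase PLCG1 (0.69) were the others that rose. CRK, the close relative of CRKL, fell, with values of 2036, 2063 and 1867 in Control, against 1121, 834 and 462 in DCC-2036. All 3 of its DCC-2036 values lay below Control, at a log2 fold change of -1.39 ± 0.31 (SE, limma, adjusted p = 0.00868). STAT5B fell from 93.3 ± 7.61 to 52.4 ± 9.51 (SD, n = 3, -0.83, adjusted p = 0.00443, limma). PTPN11, a phosphatase that relays receptor signals and the uncalled gene with the highest mean, was at 7196 ± 418 and 6810.0 ± 355 (SD, n = 3, -0.08, 95% interval -0.32 to 0.17), and its log2 fold change ran from -0.13 without Control replicate 3 to -0.04 without Control replicate 1. GRB2, GAB2, NCK1, CRKL and STAT3 kept their calls without each library, and neither CRK nor STAT5B did. Without any 1 Control library 5 genes were higher and 0 lower, and without DCC-2036 replicate 2, 5 were higher and 1 lower. CRK was then -1.37, -1.37 and -1.44 without Control replicates 1, 2 and 3 and -1.46 without DCC-2036 replicate 2 (adjusted p = 0.0312, 0.0298, 0.0271 and 0.0229, limma). STAT5B was -0.80, -0.79 and -0.90 without Control replicates 1, 2 and 3 (adjusted p = 0.0200, 0.0207 and 0.0131, limma).

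For 3 members, the tested genes with the most similar pattern over the 6 libraries were listed by Pearson's r of log2(value + 1), as a description without a test. These r values are over 6 libraries in 2 groups and rest largely on the group difference where there is one. For ERBB2, the receptor with the highest mean, they were CEP170B (0.9996), PDXK (0.9989), ZBTB14 (0.9979), CERS4 (0.9978) and CSK (0.9977). None of the 5 was called, which follows largely from their likeness to ERBB2, itself not called. For EREG they were TCN1 (0.9988), WARS2 (0.9988), FXR1 (0.9982), COX16 (0.9979) and NR1D2 (0.9976).

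For ERBB3, the called member with the lowest adjusted p, they were CHST2 (0.9999), CAMTA2 (0.9995), SYTL3 (0.9995), GATM (0.9994) and CILP2 (0.9990). Each was called lower, beside 22.7% of all genes tested. As they were picked for likeness to ERBB3, itself called lower, these calls follow largely from the choice. GATM passed the filter on low values only through the Control libraries, the group in which it was higher. Nothing is drawn from its call or its place here. Such similarity was common, as r exceeded 0.99 with ERBB3 in 331 of 12717 genes, with EREG in 83 and with ERBB2 in 65.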

How the data were processed

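RNA of 6 LoVo libraries, 3 Control and 3 DCC-2036, was grouped by sample title. The authors deposited 1 table with an adjusted signal per RefSeq transcript and library. Aligner, build, counting and adjustment are not given in the sources used here. In DCC-2036 the same number of transcripts, 5697, was at 0 in each library, against 7844, 7940 and 8078 in Control. Whether the adjustment tied libraries of a group together was not tested, and the p-values take the libraries as independent. Reads could not be recovered. The table also holds the authors' log2 fold changes, p-values and q-values, which were not used, and 0 other columns of values per sample.

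limma 3.58.1 in R 4.3.3 was run without covariates on log2(value + 1), with Benjamini-Hochberg adjustment over all genes. Tests meant for read counts were not run. Genes were named as members, as called genes of the lists with the uncalled gene of the highest mean, and as the 5 most correlated with ERBB2, EREG and ERBB3. Members and lists were chosen with earlier results of these data known. Ratios, the ERBB2 and EGFR library differences and motifs were chosen after the values were seen. Lengths came from GENCODE 29 through RefSeq accessions (96.61% of tested genes). The limma fit, but no other step, was tested on simulated data. Python 3.11.15, numpy 2.4.6, pandas 2.3.3, scipy 1.17.1 and matplotlib 3.10.9 were used. Alternatives were 3 scalings, other filters, a pseudocount of 0.1, limma with a trend, a replicate block, summed transcripts, other limits and each library left out. Removal of length and GC trends and diffSplice were added after seeing the data.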

Additional observations from a re-analysis of the deposited data

How the results depend on the processing

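ERBB3 and AREG kept direction and call in 17 of 17 alternatives other than a log2 fold change limit of 1, between -1.75 and -1.16 and between -0.99 and -0.73. With that limit AREG was not called. EGFR and ERBB2 stayed uncalled in 17 of 17. Of 39 called genes named from the lists and the most similar genes, 17 kept their call in each of these alternatives that tested them. Of the 17, GATM was tested in 13, without a value when a Control library was left out. As GATM passed the filter only through Control, its kept call was set by the filter and shows no stability. Where values changed, the cause was not tested, except that a left-out library leaves fewer samples.

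TGFA was 0.22 with equal totals, 0.36 with upper-quartile scaling and 0.42 without a filter and with a replicate block, and was called in none of these. HBEGF was 0.85 without a filter and not called. EREG was called at 0.62 with a filter in every library, limma with a trend and a limit of 0.05, and at 0.54 with length and GC trends taken out, a setting chosen after seeing the data. BTC was called at 0.78 with median-of-ratios scaling, at 0.71 with a filter in every library and a limit of 0.05, and at 0.75 with the trends out. CEP170B, uncalled at -0.31, was 0.29 there.

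With a replicate block, 1202 genes were higher and 1909 lower. Replicate numbers did not pair across groups, as correlations between equal numbers were 0.081, -0.0352 and -0.00329. The block left 1 ligand, 1 sheddase gene, 4 inhibitors, 5 adaptors and 2 chromosome 4 neighbours higher, and 0 sheddase genes and 1 adaptor lower. With a log2 fold change limit of 1, 944 genes were higher, among them 0 ligands, 1 sheddase gene, 3 inhibitors, 4 adaptors and 2 neighbours, and 0 ligands and 1 adaptor were lower. Ligands called higher numbered 1 with equal totals or upper-quartile scaling, 0 without a filter, and 4 with a filter in every library, a limit of 0.05 or the trends out. Equal totals gave 4 inhibitors and 2 neighbours higher and 4 adaptors lower, and no filter gave 4 and 2 higher and 0 adaptors lower. Lower adaptors numbered 1 with summed transcripts. A limit of 0.05 gave 2 sheddase genes, 7 inhibitors and 5 adaptors lower, and limma with a trend gave 2 sheddase genes lower.

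With each library left out in turn, 928 to 2675 genes were higher and 1514 to 3507 lower. Counts ran from 0 to 3 for higher ligands, 1 to 3 and 0 to 2 for sheddase genes higher and lower, 3 to 7 and 2 to 5 for inhibitors, 5 to 9 and 0 to 3 for adaptors, and 1 to 4 and 1 to 2 for neighbours. EREG ran from 0.51 to 0.75, HBEGF from 0.72 to 1.00 and TGFA from 0.38 to 0.46, for the gene and its main transcript alike. The TGFA transcripts NM_001099691.2, NM_001308158.1 and NM_001308159.1 ran from 0.40 to 0.48, 0.40 to 0.47 and 0.40 to 0.47. ADAM10 ran from -0.28 to 0.0390 and the short ERBB3 transcript from -0.10 to 0.42, turning to -0.02, -0.10 and -0.01 without Control replicate 2 and DCC-2036 replicates 2 and 3. EGFR transcripts turned without DCC-2036 replicate 3: NM_201282.1 ran from -0.45 to 0.20, NM_201284.1 from -0.45 to 0.19, NM_001346897.1 from -0.71 to 0.0937, NM_001346898.1 from -0.73 to 0.0941 and NM_201283.1 from -0.31 to 0.24 (0.08 without Control replicate 1).

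A test on read counts, planned for count tables, was not run, as the values are not counts. The depth is unknown, so no limit from counting can be given, and low genes such as ERBB4 and EPGN cannot be judged.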
